A study of Mus musculus with 6 samples.

Results

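The proteasome is the protease complex that degrades ubiquitin-tagged proteins in the cytosol and nucleus, and its constitutive subunits are made in almost every cell. The genes described here were chosen by name: protein-coding rows whose symbol starts with Psm, a letter from a to g and a number, without the interferon-inducible subunits Psmb8, Psmb9 and Psmb10. This rule found 47 genes among the 48897 rows of the table, and no measured value entered it. By known role, 8 encode the alpha ring and 8 the beta ring of the core, 9 the base and 8 the lid of the regulatory particle, 6 alternative activators and an inhibitor, and 7 assembly factors. The remaining gene, Psmc3ip, matched by its symbol alone. It encodes a meiotic recombination factor named for its interaction with PSMC3 and is not a subunit, so it is counted but kept apart from the roles.

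Mouse embryonic fibroblasts of the C57BL/6 strain, used at passages 5 to 7, were profiled by RNA-seq in 3 groups of 2 libraries. Control cells received PBS. TC cells received TNF-α and cycloheximide, an inhibitor of protein synthesis. TCZ cells received TNF-α, cycloheximide and z-VAD-fmk, a broad caspase inhibitor. The sources used here give no doses or times. No group had TNF-α without cycloheximide or the reverse, so the 2 agents cannot be told apart. The labels do not say whether both libraries in each group were grown separately, so p-values reflect library-to-library spread alone, possibly technical.

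As background, the core particle is a barrel of alpha rings, which form its gate, and beta rings, which hold the proteolytic sites. The base, a ring of ATPases with ubiquitin receptors, unfolds substrates and threads them into the core, and the lid removes the ubiquitin. Dedicated chaperones assemble these parts. The transcription factor NFE2L1 raises many proteasome subunit genes together when proteasome activity is short. Subunits are built into the complex in fixed numbers, but a transcript level says nothing by itself about the amount of assembled complex.

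The 6 libraries held 24922627 to 52909926 counts. Control 2 and TCZ 2 were unlike the rest, with the lowest totals (26834352 and 24922627) and few reads of the small nuclear RNA gene Rnu1a1 (3 and 1 counts against 165 to 274). Fibroblast markers were present in every library, with all 12 at 1 CPM or more in each group (CPM being counts scaled to the library size). Their summed level was 27475 to 29626 CPM in control, 21542 to 22074 in TC and 26529 to 29086 in TCZ. The sum hides changes of single markers: 8 were lower and 1 higher in TC against control, and 3 lower and 1 higher in TCZ against control. Pdgfra averaged 106, 63.5 and 16.5 CPM in control, TC and TCZ, and Pdgfrb 508, 151 and 278. The 10 macrophage and leukocyte markers were low. Their sum was highest in TCZ, at 15.4 to 15.6 CPM under PBS, 12.8 to 15.1 CPM under TC and 24.5 to 27.3 CPM under TCZ. They did not move together: of the 8 tested, 3 were higher in TCZ than in control, 1 was lower and 4 did not pass. Lyz2 averaged 6.07 CPM in control and 10.2 in TCZ, and Itgam 0.480 and 4.74, whereas Cd14 fell from 2.42 to 1.29. The 7 endothelial markers summed to 12.6 to 13.2 CPM in control, 141 to 148 in TC and 56.6 to 57.6 in TCZ, mostly Kdr. The 8 epithelial markers summed to 16.8 to 19.4, 75.9 to 82.6 and 13.5 to 17.7 CPM, mostly Krt19. The part of these markers, and of the libraries that stood apart, in the results below was not tested except where values without those libraries are given. In bulk RNA, fewer cells of a type and less RNA per cell cannot be told apart.

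Levels of different genes were compared per gene length, as RPKM, which divides reads by gene length and library total. In control cells the core subunits lay within a narrow band, from 51.9 ± 0.477 RPKM (SD, n = 2) for Psma3 to 114 ± 1.32 for Psmb4, the testis gene Psma8 and the thymus gene Psmb11 set aside. Psmd8, a lid subunit, had the highest level of all 47 genes at 179 ± 0.687 RPKM. The base subunits ranged from 61.8 ± 2.67 RPKM (Psmc2) to 104 ± 3.32 (Psmd2). Regulators were lower. Psme3, the subunit of the nuclear activator PA28γ, reached 46.5 ± 0.675 RPKM, the highest of the activators, and the assembly factors lay between 7.57 ± 0.228 (Psmg4) and 32.4 ± 0.967 (Psmd5). Within the core many neighbours in this order did not differ beyond their spread: Psmb1, at 112 ± 0.163 RPKM, and Psmb3, at 108 ± 6.56, are one such pair.

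**Figure D1:**
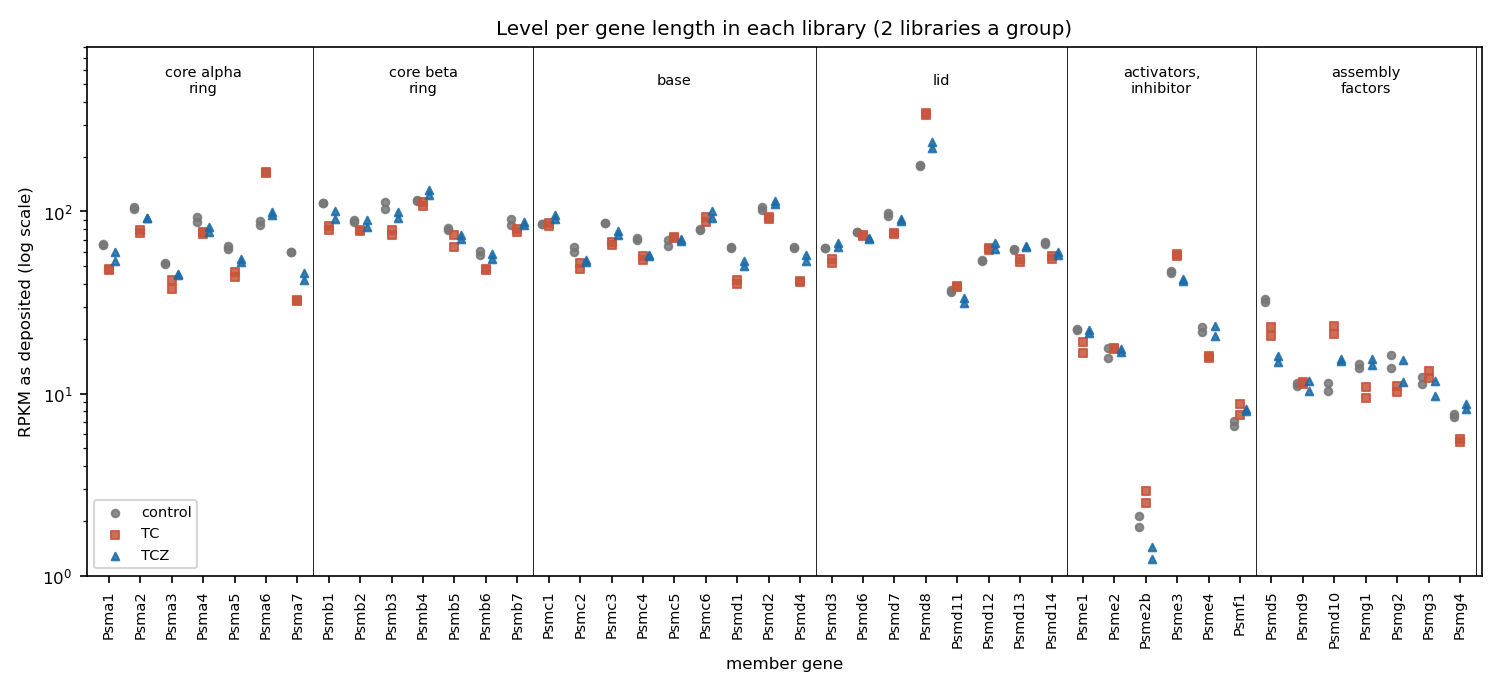
RPKM as deposited (log axis) for 44 proteasome genes by role, with 2 libraries in each of control (grey circles), TC (red squares) and TCZ (blue triangles). Psma8, Psmb11 and Psmc3ip are left out. Most core, base and lid genes lie between 30 and 130 RPKM in every library, while Psmd8 reaches 338 and 349 RPKM in TC, and the assembly factors and most activators lie lower.

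Genes restricted to other tissues were near 0. Psmb11, which encodes the thymic beta subunit, had counts of 0 and 1 under PBS, 1 and 13 under TC, and 4 and 4 under TCZ. It did not pass the low-count filter. Psma8, which encodes the testis alpha subunit, had 12 and 6, 5 and 8, and 3 and 2 counts in the same order. It passed the filter, and at these counts no difference was detectable in any comparison. The other 45 genes all passed, so 46 of the 47 were tested.

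TC against control asks how the subunit genes stood after TNF-α with cycloheximide. In the fit of all 6 libraries a minority of subunits rose strongly while more fell a little. That lean to falls depended on control 1: without it the median log2 fold change of the genes tested was -0.06 and falls no longer outnumbered rises. Of the 46 genes tested, 26 passed at an adjusted p under 0.05 (edgeR quasi-likelihood test, Benjamini-Hochberg over all 18563 genes tested), which is 56.5% against 60.7% of all genes. Of these, 10 were higher and 16 lower, against 31.5% and 29.1% of all genes. The median log2 fold change of the 46 was -0.11, against 0.02 over all genes. Their changes were small: the median absolute log2 fold change was 0.27, against 0.69 over all genes. At least 2-fold rises were seen in 3 genes (Psma6, Psmd8 and Psmd10) and at least 2-fold falls in none, against 17.6% and 11.7% of all genes. Scaled to library totals alone, which shifts the all-gene median to -0.11, 7 were higher and 28 lower, with a median of -0.25.

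In TC, 15 of the 26 calls held under each of 14 alternative analyses. They comprised 7 that rose (Psma6, Psmc6, Psmd8, Psmd10, Psmd12, Psme3 and Psmf1) and 8 that fell (Psma2, Psma5, Psma7, Psmb1, Psmd1, Psmd4, Psmd5 and Psme4). Leaving out control 1 ended the calls of Psma1, Psma3, Psmb3, Psmc3, Psmc4, Psmd7, Psme2, Psmg1 and Psmg2, with adjusted p between 0.0507 and 0.23, and left 8 lower. Without control 2, Psmg1 and Psmg2 were lost (0.0541 to 0.162). Without TC 1 the losses were Psmc3, Psmc4, Psmc5, Psmd7, Psmd11, Psme2 and Psmg2 (0.0587 to 0.127), and without TC 2 they were Psma3, Psmc3, Psmc4, Psmd7, Psme2 and Psmg1 (0.0562 to 0.203). Without control 2 and TCZ 2 together, 10 were higher and 19 lower. No gene that passed changed sign in any alternative.

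TCZ against control asks the same with caspases inhibited as well. Most of the genes did not pass: 16 of 46 did, which is 34.8% against 60.1% of all genes. Of these, 14 were higher and 2, Psma7 and Psmd5, were lower, against 31.5% and 28.6% of all genes. The median log2 fold change was 0.08 and none reached 2-fold, against 32.1% of all genes (18.3% at least 2-fold higher and 13.8% at least 2-fold lower). Scaled to library totals alone, 8 were higher and 18 lower and the median turned to -0.13, while the all-gene median moved from 0.05 to -0.15. Without control 2 and TCZ 2 together, 15 were higher and 2 lower. Under all 14 alternatives 9 calls held: Psma6, Psmb4, Psmc1, Psmc6, Psmd8, Psmd10, Psmd12 and Psmf1 were higher and Psmd5 lower. The call of Psma7 was lost without control 1 and without TCZ 2 (adjusted p 0.148 in the latter). Leaving out TCZ 1 ended those of Psmc5, Psmd3, Psmd13, Psme2 and Psmg1 (0.0511 to 0.314). Without control 1, Psme2 and Psmg1 were also lost, and without control 2, Psmd3 and Psmg1. In the log2 ratios TCZ 1 over control 1 and TCZ 2 over control 2, the medians over the 46 genes were 0.10 and 0.08. All 16 passing genes had the same direction in both. They were called from these same libraries, so that agreement adds no separate support.

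TCZ against TC asks what adding z-VAD-fmk changed. Of the 46 genes, 30 passed, which is 65.2% against 56.1% of all genes. Of these, 23 were higher and 7 lower (Psma6, Psmd5, Psmd8, Psmd10, Psmd11, Psme2b and Psme3), against 28.2% and 27.9% of all genes. The median log2 fold change was 0.19 and no gene reached 2-fold, against 23.3% of all genes (11.6% at least 2-fold higher and 11.7% at least 2-fold lower). Without control 2 and TCZ 2 together, 25 were higher and 7 lower. Under every alternative 17 calls held, 11 of them higher and 6 lower. Without TCZ 1 the higher calls fell to 13, as Psma1, Psma3, Psmb1, Psmb2, Psmb4, Psmb6, Psmc1, Psmc3, Psmg2 and Psmg4 were lost along with the lower call of Psmd11 (adjusted p between 0.0511 and 0.47). Without TC 1 the losses were Psmb1, Psmb2, Psmb4, Psmc1, Psmc3, Psmd11 and Psmg2, and without TC 2 they were Psma3, Psma5, Psmb2, Psmc1, Psmd11 and Psme1. The 3 comparisons share libraries, so their values are set side by side below and not as independent evidence. Counts by role below stand beside 60.7%, 60.1% and 56.1% of all genes passing in the 3 comparisons. By role, the share passing in TC ran from 28.6% (beta ring) to 75% (alpha ring), in classes of few genes.

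**Figure D2:**
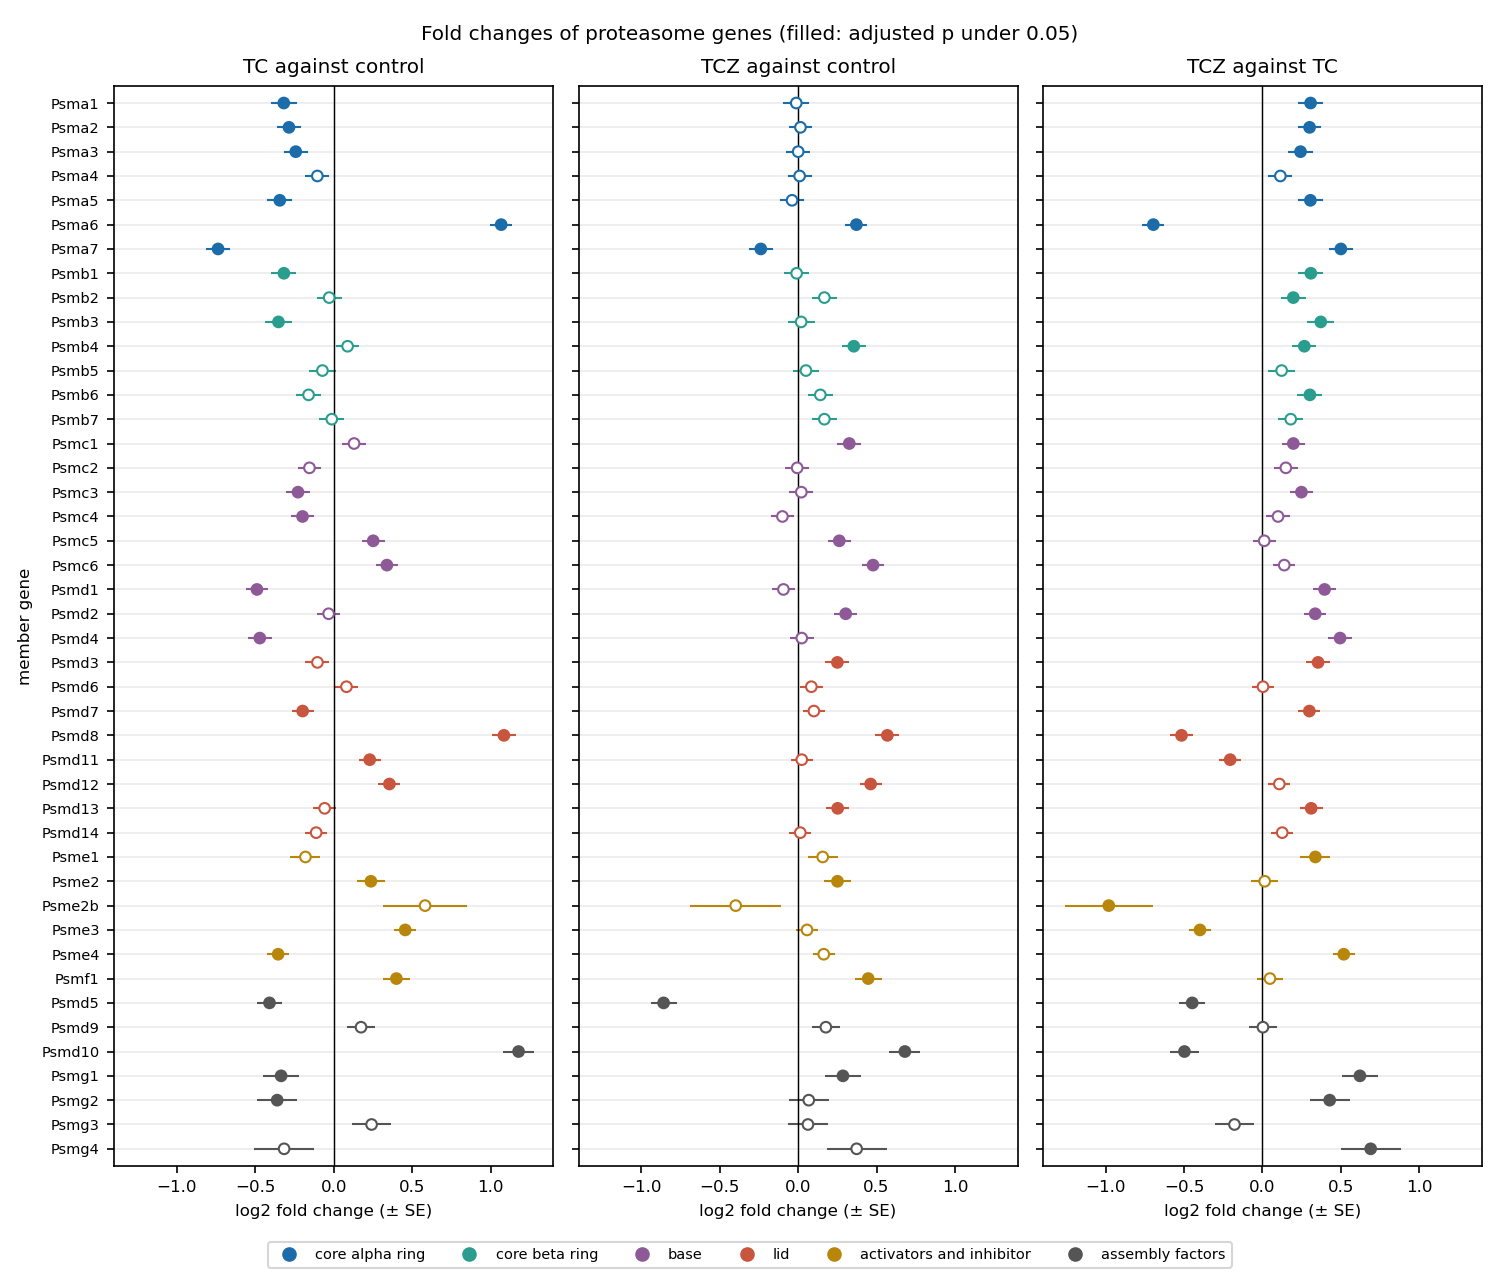
Log2 fold change ± SE of 44 proteasome genes (one row each, coloured by role) for the comparisons named above each panel. Filled points passed at an adjusted p under 0.05. In the left panel Psma6, Psmd8 and Psmd10 lie beyond 1, and in the right panel the same 3 lie between -0.70 and -0.50.

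The stretches upstream of genes that moved most are shown because the members did not move together. The first set holds the 3 genes at least 2-fold higher in TC, Psmd10 having the largest rise in both treated groups. Each is the 250 bases before a RefSeq transcript start on build GRCm38.p6, 5′ to 3′ on the gene's strand, and capitals mark matches on either strand to the CCAAT box (CCAAT), the antioxidant response element core (TGACNNNGC), the AP-1 site (TGANTCA) or an ETS site (CCGGAAG). Psma6 has 2 entries on the plus strand, at chr12:55383972-55384221, directly before the start of the gene, and at chr12:55398575-55398824, within it. Psmd8 lies on the minus strand at chr7:29180674-29180923 and Psmd10 on the minus strand at chrX:140956712-140956961.
Psma6 first start: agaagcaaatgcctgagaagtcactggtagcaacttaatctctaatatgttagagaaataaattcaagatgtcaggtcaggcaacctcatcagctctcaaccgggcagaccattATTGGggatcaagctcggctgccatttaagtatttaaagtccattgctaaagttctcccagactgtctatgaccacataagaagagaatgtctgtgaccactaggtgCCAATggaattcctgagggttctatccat
Psma6 second start: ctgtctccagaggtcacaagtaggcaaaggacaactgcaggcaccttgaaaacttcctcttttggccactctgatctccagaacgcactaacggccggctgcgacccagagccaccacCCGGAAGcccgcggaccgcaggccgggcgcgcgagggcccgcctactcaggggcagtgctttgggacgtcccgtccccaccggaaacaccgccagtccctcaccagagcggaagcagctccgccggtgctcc
Psmd8: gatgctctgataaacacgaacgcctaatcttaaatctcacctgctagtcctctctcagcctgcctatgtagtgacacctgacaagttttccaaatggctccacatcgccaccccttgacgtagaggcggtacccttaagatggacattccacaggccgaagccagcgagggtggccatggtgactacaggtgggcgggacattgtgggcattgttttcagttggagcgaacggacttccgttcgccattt
Psmd10: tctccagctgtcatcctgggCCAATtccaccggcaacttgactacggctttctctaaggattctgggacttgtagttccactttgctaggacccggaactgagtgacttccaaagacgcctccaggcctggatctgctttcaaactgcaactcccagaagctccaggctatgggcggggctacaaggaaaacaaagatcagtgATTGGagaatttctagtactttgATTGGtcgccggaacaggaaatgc

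The second set holds the gene with the largest passing fall in each comparison, Psma7 in TC against control (chr2:180042465-180042714, minus strand), Psmd5 in TCZ against control (chr2:34870963-34871212, minus strand) and Psme2b in TCZ against TC (chr11:48946411-48946660, minus strand). It also holds Psmg4, with the largest rise in TCZ against TC (chr13:34162714-34162963, plus strand).
Psma7: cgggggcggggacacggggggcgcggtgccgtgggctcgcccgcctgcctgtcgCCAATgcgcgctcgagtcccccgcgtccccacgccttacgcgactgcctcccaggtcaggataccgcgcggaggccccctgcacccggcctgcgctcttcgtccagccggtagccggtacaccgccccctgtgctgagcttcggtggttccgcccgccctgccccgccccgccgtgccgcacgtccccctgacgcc
Psmd5: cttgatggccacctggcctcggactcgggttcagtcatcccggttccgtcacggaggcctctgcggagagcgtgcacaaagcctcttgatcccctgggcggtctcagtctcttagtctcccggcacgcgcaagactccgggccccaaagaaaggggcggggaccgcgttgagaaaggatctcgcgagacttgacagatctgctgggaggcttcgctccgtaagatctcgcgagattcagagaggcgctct
Psme2b: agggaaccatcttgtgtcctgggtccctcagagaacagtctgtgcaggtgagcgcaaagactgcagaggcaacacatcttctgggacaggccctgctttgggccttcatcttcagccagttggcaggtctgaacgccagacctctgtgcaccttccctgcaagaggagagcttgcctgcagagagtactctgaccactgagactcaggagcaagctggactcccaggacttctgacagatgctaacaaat
Psmg4: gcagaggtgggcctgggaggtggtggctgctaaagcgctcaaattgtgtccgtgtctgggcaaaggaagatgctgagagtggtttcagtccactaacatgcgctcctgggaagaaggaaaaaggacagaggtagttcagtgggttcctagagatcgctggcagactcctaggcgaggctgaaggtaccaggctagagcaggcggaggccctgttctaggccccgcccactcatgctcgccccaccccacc

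RefSeq promoter entries were found for 39 of the 47 genes (42 entries, 3 genes having more than 1). CCGGAAG, a sequence bound by ETS factors, was found in 33.3% of the 42 entries, against 6.91% of all 32851 promoters and 9.14% of the 19872 protein-coding ones. The CCAAT box was in 33.3% of the members' entries and 33.8% of all. TGACNNNGC, the core of the antioxidant response element that NFE2L1 and NFE2L2 bind, was in 11.9% against 10.2%. TGANTCA, the AP-1 site, was in 2.38% against 6.75%. The kappaB-like pattern was in 54.8%, against 45.8% of all promoters and 52.6% of the protein-coding ones. Of the stretches printed above, those of Psmd8, the second Psma6 start, Psma7, Psme2b and Psmg4 hold it. Of the 10 genes higher in TC, all of which have an entry, 5 held CCGGAAG and 2 the TGACNNNGC core. Of the 12 lower genes with an entry, 3 held CCGGAAG and none the TGACNNNGC core. These counts are descriptions of letters in a window and were not tested.

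The alpha ring moved in opposite directions within itself. In TC, 1 of 8 tested genes rose and 5 fell, with a class median log2 fold change of -0.30. In TCZ against control 1 rose and 1 fell (median -0.01, or -0.20 with 1 higher and 6 lower when scaled to library totals), and in TCZ against TC 5 rose and 1 fell (median 0.27). The TCZ against control median turned to 0.06 without control 1. Psma6, the alpha1 subunit, lies at chr12:55384222-55418459 and had 89.2 and 87.0 CPM in the control libraries, 186 and 184 CPM under TC and 116 and 112 CPM under TCZ. Both TC libraries were above all others, TCZ lay between, and no groups overlapped. Its rise in TC was 2.1-fold (log2 fold change 1.07 ± 0.07 SE, adjusted p = 1.30e-11). In TCZ it was still above control (log2 fold change 0.37 ± 0.07 SE, adjusted p = 1.00e-04) and below TC (log2 fold change -0.70 ± 0.07 SE, adjusted p = 2.31e-08). Psma7, the alpha4 subunit, went the other way, with 90.9 and 85.3 CPM in the control libraries, 52.4 and 53.4 CPM under TC and 79.8 and 69.4 CPM under TCZ. TC was the lowest group and TCZ fell short of control in both libraries. Psma7 fell in TC (log2 fold change -0.74 ± 0.08 SE, adjusted p = 3.45e-08), and TCZ exceeded TC (log2 fold change 0.50 ± 0.08 SE, adjusted p = 1.37e-05). The TCZ difference from control was smaller (log2 fold change -0.24 ± 0.08 SE, adjusted p = 0.0121).

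The 4 other alpha genes that fell in TC did so by less. Psma5, the alpha5 subunit, had 75.6 and 67.1 CPM in control and 57.9 and 54.6 in TC (log2 fold change -0.34 ± 0.08 SE, adjusted p = 6.66e-04), and Psma1, Psma2 and Psma3 had log2 fold changes of -0.32, -0.29 and -0.24. None of these 4 passed in TCZ against control, where their values lay between -0.04 and 0.01. All 4 were higher in TCZ than in TC, by log2 fold changes of 0.24 to 0.31. Psma4, the alpha3 subunit, passed in no comparison (log2 fold changes -0.10, 0.01 and 0.11).

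The beta ring, which carries the proteolytic sites, had a median absolute log2 fold change of 0.09 in TC, against 0.33 in the alpha ring. In TC against control 2 of 7 tested genes fell and none rose (class median -0.07). Scaled to library totals 6 fell there (median -0.215), and without control 1 the median turned to 0.008 with 1 lower. Against control, TCZ had 1 higher (median 0.14, or -0.06 with 1 higher and 2 lower when scaled to library totals), and 4 rose without control 1 or without TCZ 2. In TCZ against TC 5 rose (median 0.27), but 2 without TC 1 and 1 without TCZ 1. None of the catalytic subunits passed against control in the edgeR test with TMM scaling, all libraries and no batch term. Scaled to library totals all 3 were lower in TC, with log2 fold changes of -0.215 for Psmb5, -0.30 for Psmb6 and -0.16 for Psmb7 (adjusted p = 0.0127, 3.36e-04 and 0.0254). Psmb5, which carries the chymotrypsin-like site, had 67.8 and 61.0 CPM in the control libraries, 56.7 and 66.0 CPM under TC and 70.3 and 63.1 CPM under TCZ, and its groups overlapped. In the edgeR fit of all 6 libraries without a batch term and with TMM scaling it passed in no comparison, with log2 fold changes of -0.07 for TC and 0.05 for TCZ against control (adjusted p = 0.48 and 0.64) and 0.12 between the treated groups (adjusted p = 0.23). Psmb6, the caspase-like site, had 60.0 and 53.1 CPM in the control libraries, 51.0 and 50.3 CPM under TC and 65.9 and 58.8 CPM under TCZ. It passed in TCZ against TC alone (log2 fold change 0.30 ± 0.08 SE, adjusted p = 0.0029), and the call was lost without TCZ 1. It also passed as lower in TC without control 2 or with a batch term, and as higher in TCZ against control without control 1 or without TCZ 2. Psmb7, the trypsin-like site, had 91.7 and 79.6 CPM in the control libraries, 83.0 and 87.0 CPM under TC and 100.6 and 91.8 CPM under TCZ, with control and TC overlapping and no passing comparison (adjusted p = 0.903, 0.0768 and 0.0597 in the same order). DESeq2 called it higher in TCZ against control and against TC (adjusted p = 0.0336 and 0.0384), as did edgeR without TCZ 2 and with a batch term.

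Of the non-catalytic beta genes, Psmb3 had 79.0 and 67.3 CPM in the control libraries, 55.4 and 59.4 CPM under TC and 78.8 and 69.4 CPM under TCZ. TC lay below both other groups, which overlapped each other. It fell in TC (log2 fold change -0.35 ± 0.09 SE, adjusted p = 0.00111) and was higher in TCZ than in TC (log2 fold change 0.37 ± 0.09 SE, adjusted p = 8.51e-04). Psmb4, the beta7 subunit, had 103 and 97.4 CPM in the control libraries, 104 and 109.8 CPM under TC and 135 and 121 CPM under TCZ and was the 1 beta gene to rise in TCZ against control (log2 fold change 0.36 ± 0.08 SE, adjusted p = 3.65e-04). In TC it did not pass (log2 fold change 0.09 ± 0.08 SE, adjusted p = 0.325). Psmb1 fell in TC (log2 fold change -0.32 ± 0.08 SE, adjusted p = 0.00163) and Psmb2 did not pass there (log2 fold change -0.03, adjusted p = 0.775).

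Within a library the core genes spread apart in TC, a reading that needs no scaling between libraries. Over the 14 core genes, the highest RPKM was 2.17 and 2.24 times the lowest in the control libraries, 5.11 and 4.97 times in TC, and 2.87 and 2.93 times in TCZ. In TC the extremes were Psma6 and Psma7, whereas in control they were Psmb4 and Psma3. This pair was picked because it held the extremes in TC, so its ratio there, 5.11 and 4.97, is the same spread and not a further result. The ratio of Psma6 to Psma7 was 1.42 and 1.47 in control and 2.09 and 2.34 in TCZ. Relative to the core median of its own library, Psma6 stood at 0.97 and 1.03 in control, 2.18 and 2.15 under TC, and 1.17 and 1.20 in TCZ. Psma6 and Psma7 enter the alpha ring in equal numbers, and in TC their transcripts were the most unequal of the core.

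**Figure D3:**
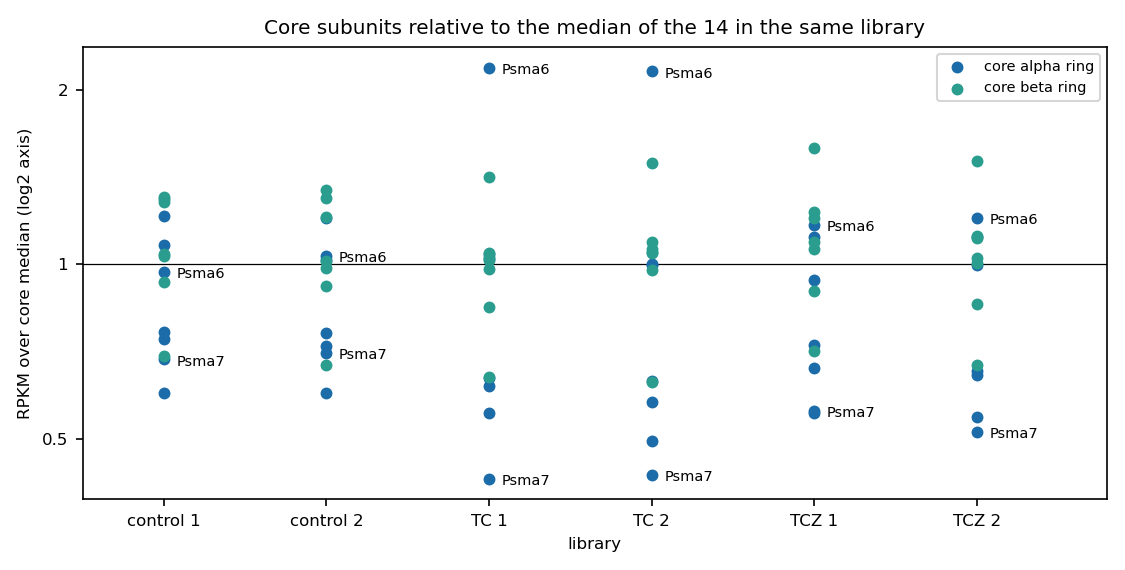
RPKM of each of 14 core genes divided by the median of the 14 in the same library (log2 axis), for the 6 libraries, with alpha ring genes in blue and beta ring genes in green. Psma6 lies at 2.18 and 2.15 and Psma7 at 0.43 in the TC libraries, and the genes lie closest together in control.

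The base was mixed, with ATPases on both sides. In TC 2 of 9 rose and 4 fell (class median -0.16). In TCZ against control 4 rose and none fell (median 0.02, or -0.18 with 5 lower and 2 higher when scaled to library totals). The median in TCZ against control was -0.07 without TCZ 1. In TCZ against TC 5 rose (median 0.20). Psmd1, the large scaffold subunit, had 196 and 185 CPM in the control libraries, 132 and 139.5 CPM under TC and 178 and 179.8 CPM under TCZ. The TC libraries were the lowest and did not overlap the others (log2 fold change -0.49 ± 0.07 SE, adjusted p = 3.25e-06), and TCZ lay just below control without passing (log2 fold change -0.09 ± 0.07 SE, adjusted p = 0.266). TCZ exceeded TC (log2 fold change 0.40 ± 0.07 SE, adjusted p = 6.57e-05). Psmd4, the ubiquitin receptor known as S5a or Rpn10, had 83.0 and 77.8 CPM in the control libraries, 58.6 and 57.5 CPM under TC and 86.9 and 76.2 CPM under TCZ. It fell in TC (log2 fold change -0.47 ± 0.08 SE, adjusted p = 1.68e-05), with TCZ overlapping control (log2 fold change 0.02 ± 0.08 SE, adjusted p = 0.818) and above TC (log2 fold change 0.49 ± 0.08 SE, adjusted p = 1.33e-05). Psmd2, the other large scaffold, did not pass in TC (log2 fold change -0.03, adjusted p = 0.715) and was higher in TCZ than in control (log2 fold change 0.30 ± 0.07 SE, adjusted p = 9.87e-04).

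Of the 6 ATPases, 2 rose and 2 fell in TC. Psmc6 had 118 and 112 CPM in the control libraries, 141 and 150.02 CPM under TC and 158 and 163 CPM under TCZ, with control the lowest group. It rose in TC (log2 fold change 0.34 ± 0.07 SE, adjusted p = 3.13e-04) and in TCZ (log2 fold change 0.48 ± 0.07 SE, adjusted p = 6.08e-06), and TCZ against TC did not pass (log2 fold change 0.14, adjusted p = 0.104). Psmc5 rose less, from 79.0 and 78.9 CPM in control to 94.9 and 93.1 in TC (log2 fold change 0.25 ± 0.07 SE, adjusted p = 0.00494) and 98.9 and 90.3 in TCZ (log2 fold change 0.26 ± 0.07 SE, adjusted p = 0.00382). The ATPases that fell in TC were Psmc3 (log2 fold change -0.23, adjusted p = 0.013) and Psmc4 (log2 fold change -0.20, adjusted p = 0.0263), both lost when control 1 or either TC library was left out. Psmc1 rose in TCZ against control (log2 fold change 0.33, adjusted p = 7.67e-04) and not in TC (log2 fold change 0.13, adjusted p = 0.142). Psmc2 passed in no comparison.

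In the lid, 3 of 8 genes rose and 1 fell in TC (class median 0.01, or -0.13 with 2 higher and 4 lower when scaled to library totals, and -0.03 without control 2). In TCZ against control 4 rose and none fell (median 0.18, or -0.02 under that scaling), and in TCZ against TC 3 rose and 2 fell (median 0.12). Psmd8, the lid subunit known as Rpn12, lies at chr7:29174187-29180673 and had 261 and 241 CPM in the control libraries, 523 and 541 CPM under TC and 397 and 347 CPM under TCZ. The 3 groups were ordered without overlap. It rose 2.12-fold in TC (log2 fold change 1.09 ± 0.08 SE, adjusted p = 4.79e-11), less in TCZ (log2 fold change 0.57 ± 0.08 SE, adjusted p = 1.31e-06), and TCZ was below TC (log2 fold change -0.52 ± 0.08 SE, adjusted p = 6.12e-06). The RPKM ratio of Psmd8 to its lid partner Psmd3 was 2.84 and 2.82 in control, 6.20 and 6.72 under TC, and 3.56 and 3.50 in TCZ.

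Psmd12, the lid subunit Rpn5, had 87.9 and 83.5 CPM in the control libraries, 110.5 and 109 CPM under TC and 117 and 119 CPM under TCZ and rose in both treated groups (log2 fold change 0.35 ± 0.07 SE, adjusted p = 1.60e-04 in TC, log2 fold change 0.46 ± 0.07 SE, adjusted p = 7.60e-06 in TCZ). Psmd11, the lid subunit Rpn6, had 102 and 97.7 CPM in the control libraries, 118 and 117 CPM under TC and 101.4 and 102 CPM under TCZ. It was higher in TC alone (log2 fold change 0.23 ± 0.07 SE, adjusted p = 0.00733) and fell from TC to TCZ (log2 fold change -0.21 ± 0.07 SE, adjusted p = 0.0164), both calls lost without TC 1. Psmd7, which pairs with the deubiquitinase, had 145 and 139 CPM in the control libraries, 124 and 124 CPM under TC and 155 and 150.1 CPM under TCZ and was the 1 lid gene lower in TC (log2 fold change -0.20 ± 0.07 SE, adjusted p = 0.0181). Psmd14, the deubiquitinase itself, passed in no comparison, with 97.5 and 93.0 CPM in the control libraries, 89.5 and 86.8 CPM under TC and 96.7 and 95.7 CPM under TCZ. Psmd3 and Psmd13 rose in TCZ against control (log2 fold changes 0.25 and 0.25), and Psmd6 passed nowhere.

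**Figure D4:**
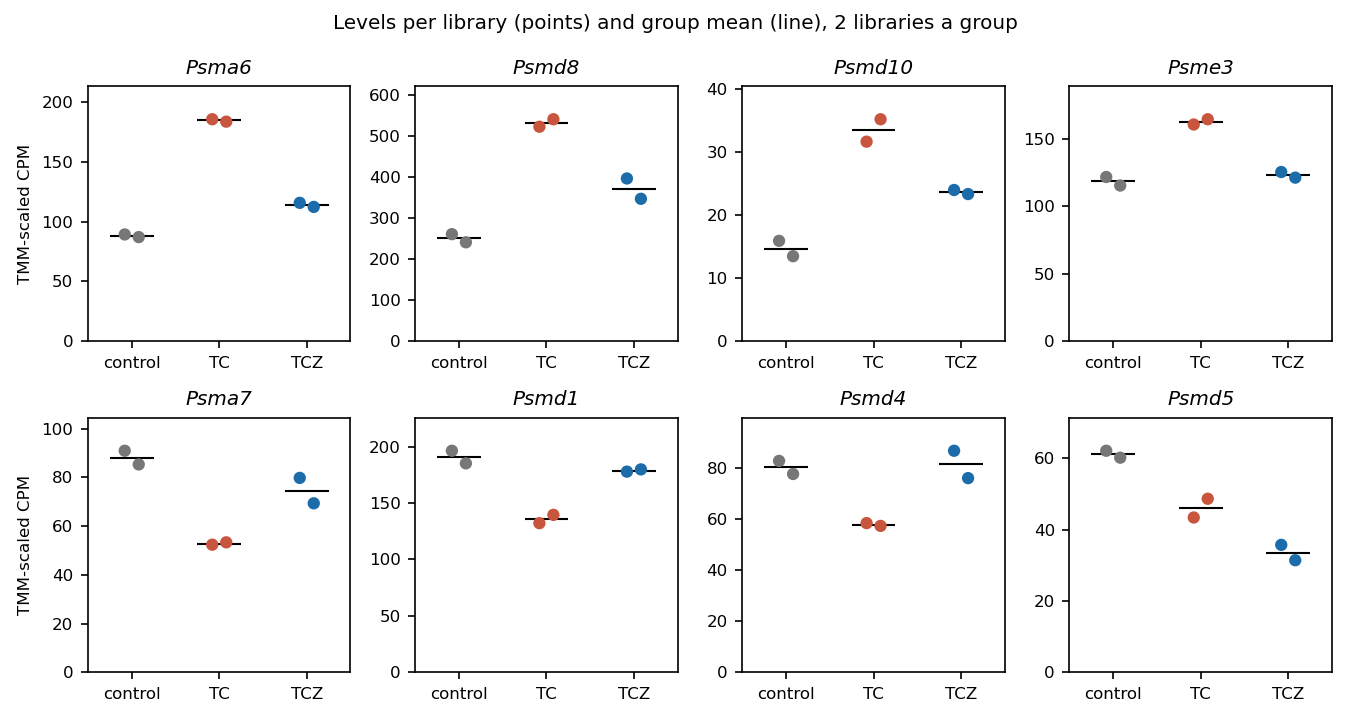
TMM-scaled CPM of 8 proteasome genes in each library (points) with the group mean (line), axes from 0. Psma6, Psmd8, Psmd10 and Psme3 are highest in both TC libraries, Psma7, Psmd1 and Psmd4 are lowest there, and Psmd5 is lowest in TCZ at 35.8 and 31.4 CPM.

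The activators, which can cap the core in place of the regulatory particle, were grouped with the inhibitor Psmf1. In TC 3 of 6 rose and 1 fell (class median 0.32). In TCZ against control 2 rose (median 0.16, or -0.04 with 1 higher and 1 lower when scaled to library totals), and in TCZ against TC 2 rose and 2 fell (median 0.03, or -0.03 under that scaling and -0.02 without TC 2 or without TCZ 1). The 2 nuclear activators moved in opposite directions in TC. Psme3, which forms PA28γ, had 122 and 116 CPM in the control libraries, 161 and 165 CPM under TC and 126 and 121 CPM under TCZ. TC stood above the other groups, which overlapped (log2 fold change 0.46 ± 0.07 SE, adjusted p = 7.72e-06 in TC, log2 fold change 0.06 ± 0.07 SE, adjusted p = 0.511 in TCZ). TCZ was below TC (log2 fold change -0.40 ± 0.07 SE, adjusted p = 5.61e-05). Psme4, which encodes PA200, had 145 and 144 CPM in the control libraries, 115 and 112 CPM under TC and 157 and 168 CPM under TCZ. It fell in TC (log2 fold change -0.35 ± 0.07 SE, adjusted p = 1.67e-04), was higher in TCZ than in TC (log2 fold change 0.52 ± 0.07 SE, adjusted p = 2.19e-06) and just missed the threshold in TCZ against control (log2 fold change 0.16, adjusted p = 0.0517). Psme4 overlaps Erlec1 on the opposite strand, whose counts are 32.1% of its own and whose log2 fold change in TC was -0.26. The ratio of Psme3 to Psme4 in RPKM was 2.11 and 2.02 in control, 3.53 and 3.71 under TC, and 2.02 and 1.82 in TCZ.

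Psmf1, the proteasome inhibitor PI31, had 23.97 and 23.7 CPM in the control libraries, 33.6 and 29.3 CPM under TC and 33.0 and 32.0 CPM under TCZ. Both treated groups were above control (log2 fold change 0.40 ± 0.09 SE, adjusted p = 3.70e-04 in TC, log2 fold change 0.45 ± 0.09 SE, adjusted p = 1.41e-04 in TCZ). Of the interferon-responsive activator pair, Psme2 rose in TC (log2 fold change 0.24, adjusted p = 0.0228) and in TCZ (log2 fold change 0.25, adjusted p = 0.0184), each call lost without control 1, and Psme1 passed in neither (log2 fold changes -0.18 and 0.16). Psme2b, a copy of Psme2, had 2.16 and 1.76 CPM in the control libraries, 2.72 and 3.20 CPM under TC and 1.44 and 1.57 CPM under TCZ. It was lower in TCZ than in TC (log2 fold change -0.98 ± 0.28 SE, adjusted p = 0.00518). Its row overlaps 261 bases of 9930111J21Rik1 on the same strand, whose log2 fold changes were 0.56, -0.50 and -1.06 against 0.58, -0.40 and -0.98 for Psme2b, and it resembles Psme2, so its values are uncertain.

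Among the assembly factors 1 of 7 rose and 3 fell in TC (class median -0.32, or -0.30 with 1 higher and 1 lower under DESeq2). In TCZ against control 2 rose and 1 fell (median 0.18, or -0.02 with 1 in each direction when scaled to library totals), and in TCZ against TC 3 rose and 2 fell (median 0.00, or -0.05 under that scaling). Without TCZ 1 the balance of the last turned, with 1 higher and 3 lower and a median of -0.15. The base chaperones diverged. Psmd10, or gankyrin, lies at chrX:140948425-140956711 and had 15.9 and 13.4 CPM in the control libraries, 31.6 and 35.2 CPM under TC and 23.9 and 23.3 CPM under TCZ. The groups did not overlap. Its rise in TC was the largest of all the members at 2.26-fold (log2 fold change 1.18 ± 0.10 SE, adjusted p = 4.85e-10), and in TCZ it stood between (log2 fold change 0.68 ± 0.10 SE, adjusted p = 3.72e-06 against control, log2 fold change -0.50 ± 0.09 SE, adjusted p = 1.12e-04 against TC). Psmd10 overlaps Atg4a on the opposite strand by 2819 bases. Atg4a passed in no comparison (log2 fold change 0.17 in TC). Whether counting used strand is not known here, so reads of such a pair cannot be told apart.

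Psmd5, or S5b, was lower in both treated groups and lowest in TCZ, with 62.1 and 60.2 CPM in the control libraries, 43.4 and 48.7 CPM under TC and 35.8 and 31.4 CPM under TCZ. No groups overlapped. The log2 fold changes were -0.41 ± 0.08 in TC (adjusted p = 1.37e-04), -0.86 ± 0.08 in TCZ (adjusted p = 8.33e-09) and -0.45 ± 0.08 for TCZ against TC (adjusted p = 9.11e-05). The RPKM ratio of Psmd10 to Psmd5 was 0.359 and 0.313 in control, 1.02 and 1.01 under TC, and 0.940 and 1.04 in TCZ. Psmd9, the base chaperone p27, passed in no comparison (log2 fold changes 0.17, 0.18 and 0.00).

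Psmg1 to Psmg4 encode the chaperones of the alpha ring. Psmg1 had 13.01 and 12.7 CPM in the control libraries, 10.9 and 9.52 CPM under TC and 16.7 and 14.5 CPM under TCZ, and it fell in TC (log2 fold change -0.34 ± 0.11 SE, adjusted p = 0.014) and was higher in TCZ than in TC (log2 fold change 0.62 ± 0.11 SE, adjusted p = 7.31e-05). Its partner Psmg2 fell in TC (log2 fold change -0.36, adjusted p = 0.0179), with 14.1 and 15.4 CPM in the control libraries, 11.0 and 11.9 CPM under TC and 17.6 and 12.7 CPM under TCZ. Neither fall in TC, of Psmg1 or of Psmg2, passed under DESeq2 (adjusted p between 0.0621 and 0.0628). Psmg4 had 3.94 and 3.82 CPM in the control libraries, 3.17 and 3.06 CPM under TC and 5.32 and 4.67 CPM under TCZ. It passed in TCZ against TC alone (log2 fold change 0.69 ± 0.19 SE, adjusted p = 0.0041), and that call was lost without TCZ 1. Psmg3, its partner, passed in no comparison. Psmc3ip, the gene matched by name, had 3.96 and 4.11 CPM in control and passed in no comparison. It overlaps Mlx, which has 719% of its counts.

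As a share of all counts, the 47 genes took 0.417% and 0.421% of the control libraries, 0.396% and 0.399% of TC and 0.410% and 0.403% of TCZ, with no overlap between the groups. On the TMM scale the order differed: their summed level was 3996 and 3745 CPM under PBS, 4045 and 4082 CPM under TC and 4478 and 4160 CPM under TCZ, so that both treated groups lay above control. Whether the sum stood above or below control therefore depends on the scaling. It also leans on the most abundant genes: Psmd8 alone averaged 251 CPM in control, 532 in TC and 372 in TCZ. The sum is not the change of a typical member, as the median log2 fold change of the tested members in TC was -0.11.

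Genes that serve the proteasome under other names were counted from lists of known partners. Of 12 partners, 3 rose and 4 fell in TC, 4 rose and 4 fell in TCZ against control, and 3 rose and 4 fell in TCZ against TC. In the same order 58.3%, 66.7% and 58.3% of them passed, against 60.7%, 60.1% and 56.1% of all genes, so the shares were close. Akirin2, which carries proteasomes into the nucleus, rose in TC (log2 fold change 1.54, adjusted p = 1.10e-13) and in TCZ (log2 fold change 0.86, adjusted p = 2.06e-09), with means of 49.7, 145 and 90.6 CPM in control, TC and TCZ. Zfand5, a proteasome-binding zinc-finger protein, did not pass in TC (log2 fold change -0.04, adjusted p = 0.692) and was higher in TCZ (log2 fold change 1.54, adjusted p = 5.13e-14), at 63.0, 61.5 and 183 CPM. Adrm1, the ubiquitin receptor Rpn13, fell in TC (log2 fold change -0.71, adjusted p = 4.96e-07) and in TCZ (log2 fold change -0.29, adjusted p = 0.00896). Pomp, the chaperone that matures the core, rose in both (log2 fold changes 0.21 and 0.22), calls that were each lost without control 2, without a low-count filter and when scaled to library totals. The TC call was also lost without control 1, TC 1 or TC 2 and with a batch term, and the TCZ call without TCZ 1.

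Of 14 genes known to control proteasome genes, 6 rose and 5 fell in TC, 7 rose and 5 fell in TCZ against control, and 5 rose and 3 fell in TCZ against TC. In the same order 78.6%, 85.7% and 57.1% of them passed, against 60.7%, 60.1% and 56.1% of all genes. Nfe2l1 transcripts fell in TC (log2 fold change -0.86, adjusted p = 1.07e-09) and in TCZ (log2 fold change -0.82, adjusted p = 2.66e-09), from a mean of 327 CPM in control to 180.3 and 185. NFE2L1 is controlled mainly as a protein, which these data do not measure. Nfe2l2, the related stress regulator, rose in TC (log2 fold change 1.24, adjusted p = 5.79e-12) and in TCZ (log2 fold change 0.90, adjusted p = 1.41e-09), and Maff, a small Maf partner of both, rose most (log2 fold change 2.76, adjusted p = 2.84e-17 and log2 fold change 3.25, adjusted p = 1.82e-18). Of 14 tested genes for ubiquitin and substrate delivery, 6 rose and 5 fell in TC, 6 rose and 1 fell in TCZ against control, and 6 rose and 3 fell in TCZ against TC. These are 78.6%, 50% and 64.3% passing, against the same shares of all genes. Rad23b, a shuttle that brings ubiquitinated proteins to the proteasome, rose in TC (log2 fold change 0.78, adjusted p = 2.37e-09) and in TCZ (log2 fold change 0.53, adjusted p = 8.87e-07).

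The interferon-inducible subunits, kept out of the 47, were low. Psmb8 rose in TC from 1.54 to 3.49 CPM (log2 fold change 1.17, adjusted p = 7.29e-04) and Psmb10 from 5.61 to 9.75 (log2 fold change 0.81, adjusted p = 4.58e-04). Neither passed in TCZ against control (adjusted p = 0.427 and 0.0898), although Psmb10 did without TCZ 2. Psmb8 was lower in TCZ than in TC (log2 fold change -0.89, adjusted p = 0.00702), a call lost without TC 2. For Psmb10 that difference (log2 fold change -0.44, adjusted p = 0.0375) was lost under DESeq2 (adjusted p = 0.0927) and on leaving out any 1 library other than TCZ 1 (adjusted p from 0.054 to 0.419). Psmb9 did not pass the low-count filter. Of their constitutive counterparts, Psmb6 passed in TCZ against TC, and Psmb5 and Psmb7 in none of the 3 comparisons of the same fit. With a batch term for control 2 and TCZ 2 both passed in TCZ against TC (adjusted p = 0.0336 and 0.00123).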

How the data were processed

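RNA-seq libraries of mouse embryonic fibroblasts were used, 2 each of control, TC and TCZ. Reads were converted with bcl2fastq, aligned with HISAT2 version 2.1.0 and counted per gene with HTSeq on mm10, per the submitters' processing notes. No source used here gives the strand setting or the annotation version. The deposited table holds raw read counts per gene, per the file headers. Its RPKM values were also made by the authors, per the file headers. Recomputed from the counts, the gene lengths and the column totals of counts, they differed from the deposited ones by at most 4.97e-07.

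Counts were tested with edgeR 4.0.16 in R 4.3.3: TMM scaling, filterByExpr with a minimum count of 10, and the quasi-likelihood test by group over all 6 libraries (3 residual degrees of freedom). P-values were adjusted by the Benjamini-Hochberg method over all 18563 genes tested, with a threshold of 0.05. The SE is the absolute log2 fold change divided by the square root of F. CPM are TMM-scaled. Tested on simulated data, the script recovered nearly all 2-fold changes and few of the smaller ones. Only a small part of the genes was changed in that simulation, whereas 60.7% of all genes passed in TC. Its recovery of small changes therefore does not carry over to these data. Library totals ran from 24922627 to 52909926, and chi-square per gene between the libraries of a group was 4.304 to 7.354, so none was a repeat of another. Alternatives were DESeq2 1.42.0, RLE scaling, library totals, no filter, the compared groups alone, a replicate block, each library left out, control 2 and TCZ 2 left out, and a batch term for those.

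The members, gene lists and tests were chosen with earlier results of these data known. Members named with the value of every library are, per role and comparison, the passing one with the largest change, the one with the smallest adjusted p and those against the sign of their class median, plus the catalytic subunits. Psma7, Psma5, Psmb1, Psmb2, Psmd2, Psmd12, Psmd14 and Psmg2 are described beyond that rule, as are the Psma6 and Psmd8 promoters, and these were picked with their values in view. The RPKM ratios of Psmd8 to Psmd3, Psme3 to Psme4 and Psmd10 to Psmd5 are also outside that rule. They restate the changes of those genes. Promoters are RefSeq entries on GRCm38.p6, cut to the 250 bases before the start. No genome sequence was read for other regions.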

Additional observations from a re-analysis of the deposited data

How the results depend on the processing

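Replicate numbers did not pair the TC libraries with the others: same-numbered libraries had deviation correlations of 0.006 (control and TC) and -0.04 (TC and TCZ). For control and TCZ the correlation was 0.22, a partial sharing. Those groups hold control 2 and TCZ 2, the libraries that stood apart. With the replicate block, 10 genes were higher and 16 lower in TC (median log2 fold change -0.11), 15 and 2 in TCZ against control (0.07), and 24 and 7 in TCZ against TC (0.18). Scaling to library totals gave 28 lower in TC (median -0.25), 8 higher and 18 lower of 26 passing in TCZ against control (median -0.13), and a median of 0.13 in TCZ against TC. The all-gene medians moved with it to -0.11, -0.15 and -0.04. Without a low-count filter 9 were higher in TCZ against control. Without control 2 and TCZ 2 the TCZ against TC median was 0.26. With a batch term for those 2 libraries it was 0.26 as well, and -0.16 in TC against control. In each case the cause was not tested.

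Leaving out 1 library at a time gave these ranges. In TC against control 17 to 27 genes passed, 7 to 11 of them higher and 8 to 16 lower, with medians from -0.16 to -0.06. In TCZ against control 12 to 19 passed, 10 to 18 higher and 1 to 2 lower, with medians from 0.031 to 0.14. In TCZ against TC 20 to 32 passed, 13 to 25 higher and 6 to 7 lower, with medians from 0.12 to 0.25. The lowest counts came without control 1 for falls in TC and without TCZ 1 for rises in TCZ. For single named genes, 696 of the values under alternatives kept their side of the threshold, 33 lost it and 27 gained it, with no reversal. The number of libraries, 2 a group, limits the precision, and for Psma8, at 2 to 12 counts a library, no difference was detectable at this depth.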

Other observations

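Near Psmd8 and Psma6, other genes also passed in TC against control, as did 60.7% of all genes. They did not all rise. Within 100 kb of Psmd8, Kcnk6 and Rasgrp4 fell in TC (log2 fold changes -3.20 and -1.23, adjusted p = 6.14e-07 and 0.0405). Fam98c and Ryr1 there did not pass (adjusted p = 0.367 and 0.149). Spred3, a regulator of MAPK signalling, lies 4333 bases downstream of Psmd8 on the same strand and had 30.4 and 28.2 CPM in the control libraries, 72.0 and 65.7 CPM under TC and 48.4 and 50.7 CPM under TCZ (log2 fold change 1.23 ± 0.08 SE, adjusted p = 7.65e-12 in TC). Its order of groups is that of Psmd8. Ggn, only 249 bases from Psmd8, also rose in TC (log2 fold change 1.87, adjusted p = 4.64e-08) but had another order. It was highest in TCZ, with 1.20 and 0.863 CPM in the control libraries, 4.33 and 3.44 CPM under TC and 15.9 and 16.9 CPM under TCZ. Psma6 lies 70950 bases from Nfkbia, the NF-κB inhibitor IκBα, whose levels of 13.01 and 11.9 CPM in control were 315 and 341 CPM under TC and 1137 and 979 CPM under TCZ. Nfkbia was highest in TCZ, whereas Psma6 was highest in TC. Ppp2r3c, a phosphatase subunit gene in the same stretch, rose in both treated groups (log2 fold change 0.69, adjusted p = 3.28e-06 in TC and 0.59, adjusted p = 3.65e-05 in TCZ). No relation between neighbours was tested.

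Of the 47 genes, 13 have a gene starting on the opposite strand within 1000 bases, head to head. Psmg2 and Cep76, a centrosomal protein gene, start 263 bases apart, and Cep76 had log2 fold changes of -0.38, 0.24 and 0.63 against -0.36, 0.07 and 0.43 for Psmg2. Psma7 and Ss18l1, a chromatin-remodelling subunit gene, start 19 bases apart and differed: Ss18l1 fell in TCZ (log2 fold change -1.23, adjusted p = 6.91e-05) and did not pass in TC (log2 fold change -0.30, adjusted p = 0.219). The table also holds 25 pseudogene rows described as proteasome subunits, with 1569 counts in all over the 6 libraries, 1056 of them in Gm13835, a copy of the alpha type 3 gene.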
